A study of Mus musculus with 17 samples.

Results

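Troponin and tropomyosin form the switch that lets calcium turn on contraction, and the mouse genome encodes separate isoforms of each subunit for slow, fast and cardiac or embryonic muscle. The members described here are the genes of 10 such isoforms: the troponin I genes Tnni1 and Tnni2, the troponin T genes Tnnt1, Tnnt2 and Tnnt3, the troponin C genes Tnnc1 and Tnnc2, and the tropomyosin genes Tpm1, Tpm2 and Tpm3. They were taken by symbol. Of 12393 genes that could be named on the platform these are 10. Every probe set that the platform annotation assigns to exactly 1 of these symbols was used, which gave 22 of the 22626 probe sets tested. Where a gene has several probe sets, they are named by their brightness over all arrays (the brightest, the second and so on). Of these, 4 probe sets read troponin I, 4 read troponin T, 2 read troponin C and 12 read tropomyosin.

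The study compared tibialis anterior, a shin muscle made almost wholly of fast fibres, between 3 groups of mice on 17 Affymetrix expression arrays, with 1 array per biological replicate. There were 6 arrays of normal muscle, 6 of mdx muscle, which lacks dystrophin because of a mutation in its gene, and 5 of fiona muscle, from a transgenic line that carries the mdx mutation and expresses utrophin at a high level. Per the labels the mice were males killed at 56 days, both muscles of an animal were pooled, and 8 µg of total RNA was labelled for each array. The promoter that drives the transgene and the strain background are not given in the labels used here. All 3 groups had the same age, and the labels name no treatment.

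In striated muscle, tropomyosin is a coiled coil that lies along the actin filament and covers the sites to which myosin binds. Troponin T anchors the troponin complex to tropomyosin, troponin I holds the filament in the blocked state, and troponin C binds calcium and releases that block. Adult fast fibres use Tnni2, Tnnt3 and Tnnc2, and slow fibres use Tnni1, Tnnt1 and Tnnc1. The cardiac troponin T gene Tnnt2 is also transcribed in embryonic and regenerating skeletal muscle, and Tnni1 is used by developing muscle before the fast isoform replaces it. Tpm1 encodes the alpha chain of fast and cardiac muscle, Tpm2 the beta chain, and Tpm3 the alpha chain of slow fibres as well as non-muscle forms.

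The deposited values are log2 expression values, so that a difference of 1 is a doubling. A difference was called when its adjusted p was under 0.05 in a limma fit to all 22626 probe sets, with the Benjamini-Hochberg adjustment taken over the whole table. The number after a ± sign is a standard deviation, and standard errors are written SE. Levels of different probe sets cannot be set against each other, since each probe set has its own response. The level of 15 probe sets for unspiked bacterial transcripts served as the floor and lay between 2.64 and 2.99 per array, and array medians lay between 3.52 and 3.82.

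Several properties of the arrays bear on the comparisons. With each group's mean subtracted, the first principal component (42.7% of what variance was left) split the arrays into 2 sets. Set 1 held 3 normal, 3 mdx and 2 fiona arrays, and no label gives a batch. The sets were drawn from the same values that are tested, so an adjusted p from a fit that uses them may be too small. Although the labels give males, 7 arrays had a female pattern (Eif2s3y, a gene of the Y chromosome, under 6), namely 1 normal, 2 mdx and 4 of the 5 fiona arrays. Mdx array 6 had Eif2s3y at 8.11 but Xist, the transcript of the inactive X chromosome, at 5.40, between the other male (1.94 to 2.47) and the female arrays (7.73 to 8.53), and was counted as male. In mdx array 1 the 3′ probe set of Gapdh read 2.54 above the 5′ probe set, against −0.43 to 0.06 on the other 16 arrays. Fiona arrays were slightly brighter at the low end, with array medians 0.12 and floors 0.20 above those of mdx arrays on average. No pair of arrays was identical.

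Mdx muscle had far more RNA of the cardiac and embryonic troponin T gene Tnnt2 and of the slow and developmental troponin I gene Tnni1 than normal muscle, and in fiona muscle both were near the normal level. The slow troponins T and C, Tnnt1 and Tnnc1, fell between mdx and fiona muscle. The fast isoforms Tnni2, Tnnt3 and Tnnc2 were not called lower or higher in mdx muscle. Between mdx and normal muscle, 4 of the 22 member probe sets were called and all 4 were higher, which is 18.2% of the members, against 4.04% of all probe sets called, 2.73% higher and 1.30% lower. Between fiona and mdx muscle, 8 were called, 6 lower and 2 higher, which is 36.4%. The background of that comparison was 42.1% called, with 36.0% higher and 6.08% lower, so the count of members called lay below it, while the share called lower, 6 of 22, lay above it. The first of these turns with the scaling: with arrays centred on their medians 27.3% of members and 10.9% of all probe sets were called, and with quantile normalization 22.7% and 14.9%. Every member called under either scaling was lower in fiona muscle (6 and 5 of 22, beside 5.51% and 4.14% of all probe sets). Between fiona and normal muscle, 0 of 22 member probe sets were called in limma, against 0.00442% of all probe sets, and 3 had an unadjusted p under 0.05.

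**Figure D1:**
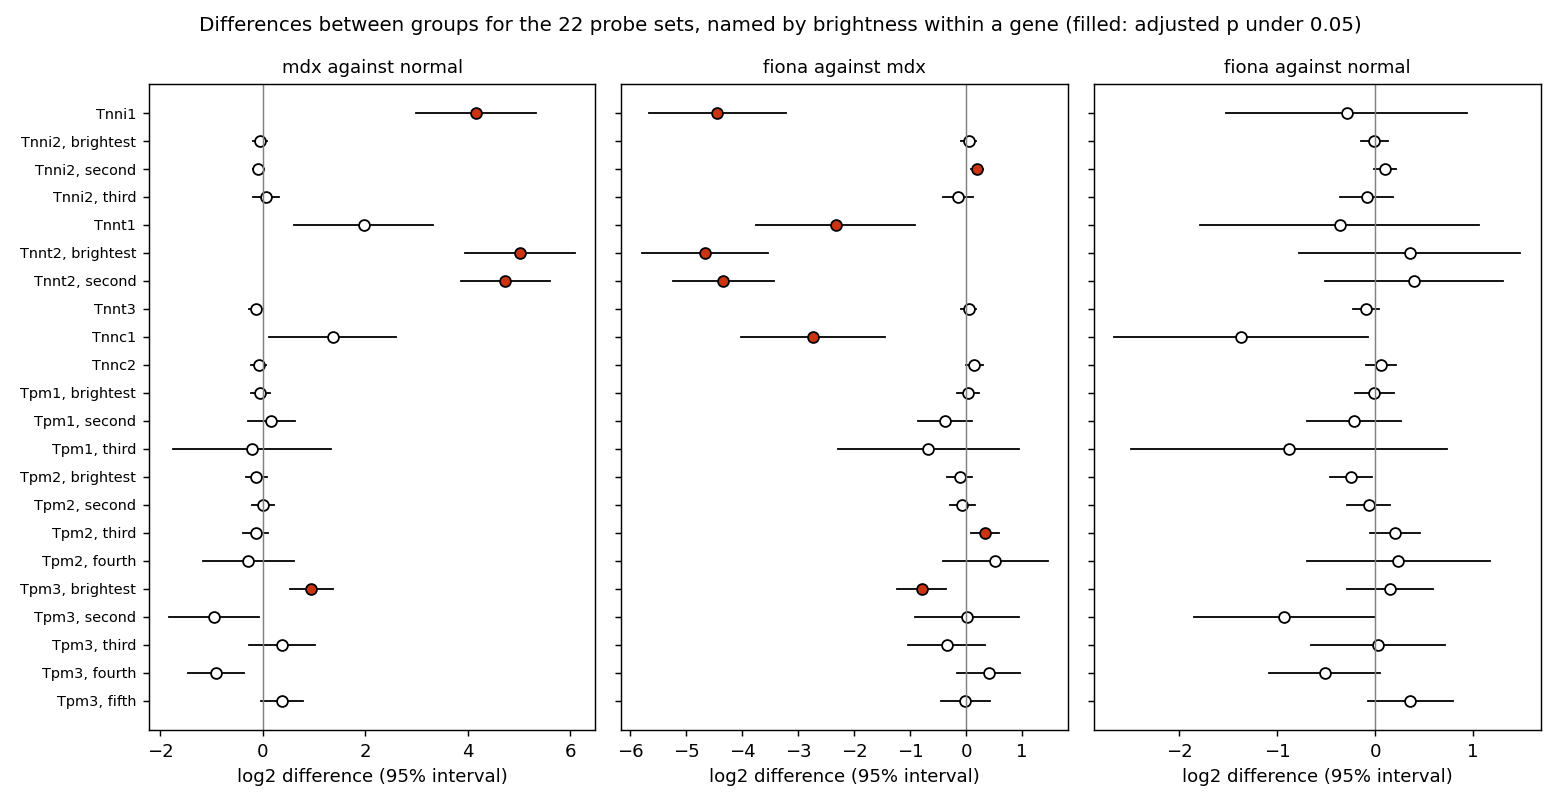
Log2 difference (x axis, with its 95% interval from limma) of each of the 22 member probe sets (y axis) for mdx against normal, fiona against mdx and fiona against normal. Filled points have an adjusted p under 0.05. The Tnnt2 and Tnni1 points lie between 4.16 and 5.02 in the first panel and between −4.67 and −4.34 in the second, and no point is filled in the third.

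The median difference over the 22 probe sets was −0.02 between mdx and normal muscle, −0.09 from mdx to fiona muscle and −0.04 between fiona and normal muscle, beside −0.04, 0.08 and 0.04 over all probe sets. Most of the 22 are tropomyosin or fast troponin probe sets with small differences. The mdx arrays served in both of the first comparisons, so their opposite directions are not independent.

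The 250 bases upstream of the first start site are shown for the 4 troponin genes whose RNA fell from mdx to fiona muscle, and for Tnnc2, the fast partner of Tnnc1, as a gene with no call. They come from RefSeq with build GRCm38.p6, in which 8 of the 10 member genes were matched. Tnni2 and Tnnt3 are named only. Each sequence is written 5′ to 3′ on the gene's own strand and ends at the base before the start site. Tnnt2 lies at chr1:135836084-135836333 on the plus strand, Tnni1 at chr1:135799171-135799420 on the plus strand, Tnnc1 at chr14:31208062-31208311 on the plus strand, Tnnt1 at chr7:4515976-4516225 on the minus strand and Tnnc2 at chr2:164779735-164779984 on the minus strand. Capitals mark matches to CATTCC or its reverse complement GGAATG (the MCAT element, bound by TEAD factors), to CAGCTG (an E-box, bound by myogenic basic helix-loop-helix factors) and to the MEF2 site.
Tnnt2: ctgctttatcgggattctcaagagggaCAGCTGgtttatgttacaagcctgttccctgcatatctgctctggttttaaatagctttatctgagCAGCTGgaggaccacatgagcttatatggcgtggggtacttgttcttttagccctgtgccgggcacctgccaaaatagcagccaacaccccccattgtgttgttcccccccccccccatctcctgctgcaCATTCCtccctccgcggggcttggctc
Tnni1: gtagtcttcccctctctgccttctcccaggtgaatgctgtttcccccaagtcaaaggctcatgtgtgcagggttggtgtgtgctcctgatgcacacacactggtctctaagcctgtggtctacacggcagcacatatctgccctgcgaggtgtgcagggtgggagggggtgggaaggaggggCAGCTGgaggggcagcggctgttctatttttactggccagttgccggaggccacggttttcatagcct
Tnnc1: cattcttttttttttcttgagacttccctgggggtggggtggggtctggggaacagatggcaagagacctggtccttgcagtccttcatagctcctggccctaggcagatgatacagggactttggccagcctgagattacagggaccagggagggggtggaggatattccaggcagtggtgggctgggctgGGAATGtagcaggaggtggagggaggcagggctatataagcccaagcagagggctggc
Tnnt1: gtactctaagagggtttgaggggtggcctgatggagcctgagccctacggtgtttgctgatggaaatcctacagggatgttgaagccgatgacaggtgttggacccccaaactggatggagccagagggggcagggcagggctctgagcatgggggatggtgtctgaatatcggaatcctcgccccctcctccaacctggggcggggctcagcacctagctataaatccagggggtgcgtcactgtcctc
Tnnc2: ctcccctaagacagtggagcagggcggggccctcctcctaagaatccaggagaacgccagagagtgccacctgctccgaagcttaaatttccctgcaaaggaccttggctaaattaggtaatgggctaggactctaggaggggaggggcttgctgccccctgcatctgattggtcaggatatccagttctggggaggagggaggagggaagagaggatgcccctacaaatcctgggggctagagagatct
In the Tnnt2 sequence an MCAT match began at position −27 from the start site, and CAGCTG matches began at −223 and −157. The Tnni1 sequence had 1 CAGCTG match, at −68, and no MCAT match. The Tnnc1 sequence had 1 MCAT match on the opposite strand, at −58. Tnnt1 had a TATAAA match at −30 and no MCAT or CAGCTG match, and Tnnc2 had none of the 3. Tnnt2 and Tnni1 each have a second listed start site. The window of the second Tnnt2 site held no MCAT or CAGCTG match, and that of Tnni1 held CAGCTG at −158. The same motifs occur in members not shown. Tpm1, which was not called in the main fit, had an MCAT match on the opposite strand at −56. CAGCTG matches began at −227 for Tpm2 and at −175 for the first start site of Tpm3. Among 32851 RefSeq promoter windows of the same 250 bases, 12.6% held CATTCC on either strand, 13.0% held CAGCTG, which reads the same on both strands and is a case of CANNTG (66.2%), 12.4% held TATAAA on either strand, and 2.92% held the MEF2 site. A match describes the letters in the window and is not evidence of binding.

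The sequences also place both strongly changed members together. The first start sites of Tnni1 and Tnnt2 lie on chromosome 1 in the same direction, 36.9 kb apart, and the reference gene table lists only Lad1, a basement membrane gene of epithelia, as a protein-coding gene between them. On these arrays Lad1 was at or under the floor on all 17 arrays, as was Pkp1, the next protein-coding gene after Tnnt2. Phlda3, the protein-coding gene on the other side of Tnni1, had means of 9.99 (normal), 9.91 (mdx) and 10.2 (fiona), and its difference between mdx and normal was −0.08 (adjusted p = 0.877). These neighbours were chosen after their values were seen. Between the fast genes Tnni2 and Tnnt3 lies Lsp1, a leukocyte gene, which rose by 2.07 in mdx muscle (adjusted p = 0.00239) while neither fast troponin beside it was called. Also higher in mdx muscle were Igf2 near Tnnt3 (3.90, adjusted p = 0.000329), Stab1 near Tnnc1 (1.74, adjusted p = 0.00105) and Ube2c beside Tnnc2 (0.71, adjusted p = 0.0252). The other measured neighbours outside the members, up to 2 genes from each troponin gene, were not called for mdx against normal.

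Troponin T was read by 4 probe sets, and the cardiac and embryonic gene Tnnt2 had the largest change of any member. On its brighter probe set, the normal arrays ran from 3.87 to 4.68 with a median of 4.18. The mdx arrays ran from 6.54 to 10.4 with a median of 9.90. The fiona arrays measured 4.78, 4.51, 4.26, 4.62 and 4.79. Every mdx array lay above every normal and every fiona array, whereas normal and fiona arrays overlapped. Non-overlapping groups were found for 4.49% of all probe sets for mdx against normal and for 35.0% for fiona against mdx, and for 3 and 4 of the 22 members. Between fiona and normal muscle they were found for 1.04% of all probe sets and 0 of the 22. Tnnt2 rose 32.4-fold in mdx muscle, a log2 difference of 5.02 (SE 0.50, adjusted p = 2.65e-05, limma), with an exact two-sided permutation p of 0.00216, the smallest that 6 against 6 arrays allow. It fell 25.4-fold from mdx to fiona muscle, a log2 difference of −4.67 (adjusted p = 0.000124, exact permutation p = 0.00433). Between fiona and normal muscle the difference was 0.35 (95% interval −0.78 to 1.48, adjusted p = 0.708).

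The second Tnnt2 probe set gave a similar picture. Normal arrays ran from 3.93 to 4.36, mdx arrays from 6.85 to 9.77 with a median of 9.15, and fiona arrays measured 4.72, 5.23, 4.00, 4.26 and 4.07. Again no mdx array overlapped the other groups, and fiona arrays 1 and 2 lay above all normal arrays. The rise in mdx muscle was 26.6-fold (4.73, SE 0.40, adjusted p = 5.66e-06) and the fall in fiona muscle 20.2-fold (−4.34, adjusted p = 3.64e-05), with exact permutation p of 0.00216 for each. Fiona exceeded normal muscle by 0.40 (adjusted p = 0.581). Expressed as a share of the difference between mdx and normal means, 7.03% and 8.38% was left in fiona muscle on the 2 probe sets.

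The mdx arrays differed in Tnnt2 by more than any other group did. Mdx array 2 was the lowest on both Tnnt2 probe sets, at 6.54 and 6.85, and mdx array 6 was next, at 8.65 and 8.19. The same array, mdx 2, was lowest among mdx arrays for Tnni1, Tnnt1 and Tnnc1, and also for the embryonic myosin gene Myh3 (8.19, others 9.87 to 11.4) and the myogenic factor Myog (3.75, others 6.67 to 8.99). Without mdx array 2 the rise of Tnnt2 was 5.56 on the brighter probe set (adjusted p = 2.81e-08). Within array set 1 it was 5.53 (adjusted p = 0.000226) and within set 2 it was 4.50 (adjusted p = 0.0448). Without the arrays of female pattern it was 4.50 (adjusted p = 0.0164).

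The fall of Tnnt2 in fiona muscle depended more on which arrays were kept. Within set 1 the difference on the brighter probe set was −5.36 (adjusted p = 0.000648) and within set 2 it was −3.94 (adjusted p = 0.102). Without the arrays of female pattern, where fiona is a single array that is assumed to vary like the others, it was −4.20 (adjusted p = 0.0523). With the pattern as a covariate it was −4.88 (adjusted p = 0.000309). The direction was the same throughout, and the call was lost within set 2 and without the arrays of female pattern.

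The slow troponin T gene Tnnt1 had a wider spread. Its probe set ran from 5.19 to 7.88 in normal muscle with a median of 6.59. In mdx muscle it ran from 5.95 to 10.1 with a median of 8.28. Fiona arrays measured 5.69, 6.74, 6.39, 5.31 and 6.39. Of the mdx arrays, 5 lay above all normal arrays and mdx array 2 lay among them, and no fiona array left the normal range. The difference of 1.97 between mdx and normal muscle (SE 0.64) was not called (adjusted p = 0.110, exact permutation p = 0.0303), and without mdx array 2 it was 2.47 and called (adjusted p = 0.0147). Tnnt1 fell 5.04-fold from mdx to fiona muscle (−2.33, SE 0.67, adjusted p = 0.0153, exact permutation p = 0.0108). That call was lost with the replicate number as a block (−2.26, adjusted p = 0.0508), within array set 2 (−1.60, adjusted p = 0.310) and without the arrays of female pattern (−2.37, adjusted p = 0.217), and with the pattern as a covariate the difference was −3.07 (adjusted p = 0.00690).

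Tnnt3, the fast troponin T gene, was among the brightest signals and was nearly level. Normal arrays ran from 14.96 to 15.11, mdx arrays from 14.78 to 14.98, and fiona arrays measured 15.12, 14.92, 14.97, 14.70 and 14.99. The difference between mdx and normal muscle was −0.14 (SE 0.06, adjusted p = 0.237, exact permutation p = 0.00866), and 3 of 6 mdx arrays lay below all normal arrays. Fiona and mdx muscle differed by 0.05 (adjusted p = 0.564), but the sign was opposite, −0.24 (adjusted p = 0.0426), without the arrays of female pattern, where fiona array 4, the lowest, is the only fiona array.

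**Figure D2:**
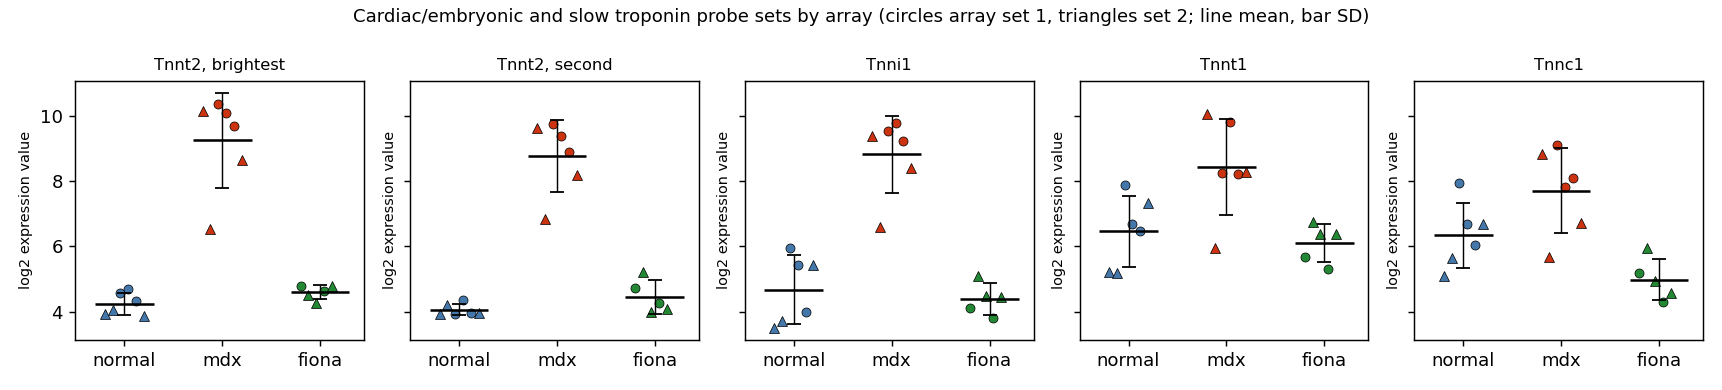
Log2 expression values (y axis, shared scale) by array for the Tnnt2, Tnni1, Tnnt1 and Tnnc1 probe sets in normal, mdx and fiona muscle. Circles are arrays of set 1 and triangles of set 2, horizontal lines are group means and bars are SD. All mdx points of Tnnt2 and Tnni1 lie at 6.54 or above and all normal and fiona points at 5.96 or below, while the groups of Tnnt1 and Tnnc1 overlap.

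Troponin I showed the same contrast between isoforms. The slow and developmental gene Tnni1 ran from 3.50 to 5.96 in normal muscle with a median of 4.71, and from 6.59 to 9.79 in mdx muscle with a median of 9.32. Fiona arrays measured 4.11, 5.09, 4.47, 3.80 and 4.45. All mdx arrays lay above all others, and all fiona arrays lay inside the normal range. Tnni1 rose 17.8-fold in mdx muscle (4.16, SE 0.55, adjusted p = 0.000329, exact permutation p = 0.00216) and fell 21.8-fold from mdx to fiona muscle (−4.44, SE 0.58, adjusted p = 0.000411, exact permutation p = 0.00433). Fiona muscle was 0.29 below normal muscle on average (95% interval of the difference −1.52 to 0.94, adjusted p = 0.792), and the share left was −6.93%.

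Both Tnni1 differences were called within array set 1, at 4.40 (adjusted p = 0.0112) and −5.57 (adjusted p = 0.00833). Within set 2 they were 3.91 (adjusted p = 0.0641) and −3.46 (adjusted p = 0.137) and not called. Without the arrays of female pattern they were 3.92 (adjusted p = 0.0418) and −4.64 (adjusted p = 0.0478). The normal arrays of Tnni1 also spread widely, with an SD of 1.05 that was near the 1.19 of mdx arrays, while the fiona SD was 0.48.

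The fast troponin I gene Tnni2 was read by 3 probe sets. On the brightest it ranked among the 5 brightest probe sets of each array, and its group means were 15.24 ± 0.10 for normal muscle (n = 6), 15.19 ± 0.14 for mdx (n = 6) and 15.23 ± 0.08 for fiona (n = 5). The array maxima lay between 15.2 and 15.6, so this probe set had little room above it. The probe sets of Tnnt3 (14.70 to 15.12 over all arrays) and Tnnc2 (14.575 to 14.99) also lay near these maxima. So did the first Tpm1 probe set (14.26 to 14.81). The mdx difference was −0.05 (95% interval −0.18 to 0.08, adjusted p = 0.583). On the second, fiona arrays measured 13.52, 13.53, 13.63, 13.52 and 13.66, all above the mdx arrays at 13.15 to 13.47. That difference of 0.19 was called (adjusted p = 0.0134), in a comparison where 36.0% of all probe sets were called higher. With arrays centred on their medians it was 0.07 (adjusted p = 0.359) and with quantile normalization 0.14 (adjusted p = 0.137). The third and dim probe set, with group means of 7.37, 7.43 and 7.28, was not called in any comparison of the main fit.

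Troponin C was read by 1 probe set for each gene. Tnnc1, the calcium sensor of slow and cardiac muscle, ran from 5.09 to 7.95 in normal muscle with a median of 6.36, and from 5.68 to 9.10 in mdx muscle with a median of 7.96. Fiona arrays measured 5.18, 5.94, 4.93, 4.28 and 4.57. The mdx and normal arrays overlapped, with 3 of 6 mdx arrays above all normal arrays, while 4 of 5 fiona arrays lay below all mdx arrays and 3 below all normal arrays. The mdx difference of 1.36 was not called (SE 0.58, adjusted p = 0.243). Tnnc1 fell 6.65-fold from mdx to fiona muscle (−2.73, SE 0.61, adjusted p = 0.0120, exact permutation p = 0.00866). It was the member with the largest difference between fiona and normal muscle, −1.37 (SE 0.61, adjusted p = 0.210, exact permutation p = 0.0260), which was not called. The call for fiona against mdx was lost within array set 2 (−1.94, adjusted p = 0.241) and without the arrays of female pattern (−3.12, adjusted p = 0.162).

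Tnnc2, the calcium sensor of fast fibres, ran from 14.66 to 14.95 in normal muscle and from 14.57 to 14.94 in mdx muscle. Fiona arrays measured 14.75, 14.85, 14.99, 14.91 and 14.98. The groups overlapped in all 3 comparisons. The mdx difference was −0.08 (95% interval −0.22 to 0.06, adjusted p = 0.428) and the fiona difference against mdx was 0.14 (adjusted p = 0.117), which became 0.18 and was called without mdx array 2 (adjusted p = 0.0457).

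**Figure D3:**
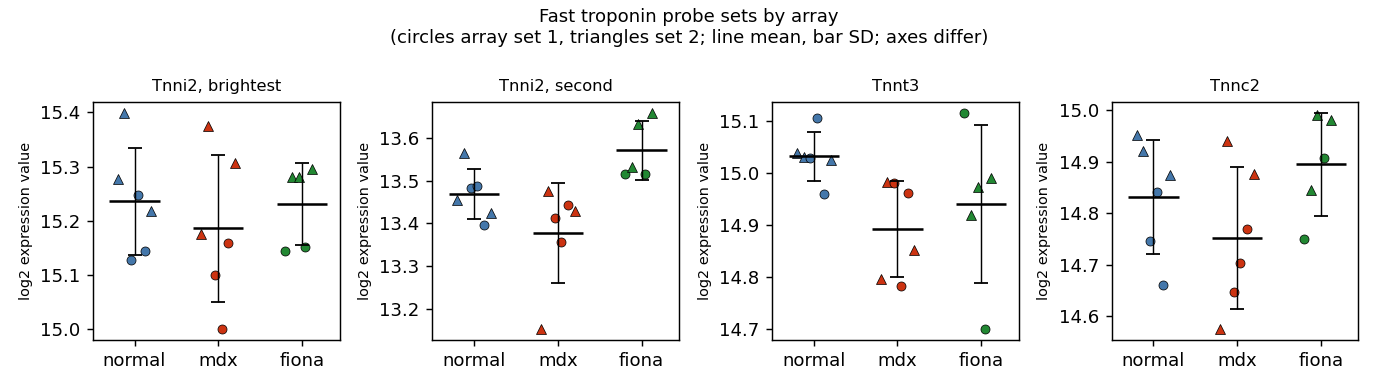
Log2 expression values (y axis, a separate scale in each panel) by array for the bright probe sets of Tnni2, Tnnt3 and Tnnc2 in normal, mdx and fiona muscle. Circles are arrays of set 1 and triangles of set 2, lines are group means and bars are SD. On the second Tnni2 probe set the fiona points (13.52 to 13.66) lie above the mdx points (13.15 to 13.47).

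Tropomyosin had 12 probe sets, of which 1 was called for mdx against normal and 2 for fiona against mdx. Over all probe sets 4.04% and 42.1% were called in these 2 comparisons. The fast and cardiac gene Tpm1 was bright on its first probe set, with means of 14.57 ± 0.18 for normal muscle (n = 6), 14.52 ± 0.13 for mdx (n = 6) and 14.56 ± 0.14 for fiona (n = 5), and differences of −0.05 for mdx against normal (adjusted p = 0.709) and 0.04 for fiona against mdx (adjusted p = 0.753). Its 2 dimmer probe sets, with mdx differences from normal of 0.17 and −0.20, were not called in the main fit either. On the third, mdx arrays ran from 2.53 to 6.68, with 1 at or under the floor. With the sex pattern as a covariate, the second Tpm1 probe set was called for fiona against mdx (−0.62, adjusted p = 0.0265), where the fit without it gave −0.38 (adjusted p = 0.186).

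Tpm2, the beta chain, had 4 probe sets with means between 12.3 and 14.6 in every group. They did not share a direction: fiona minus mdx was −0.12 on the brightest, −0.07 on the second, 0.34 on the third and 0.52 on the fourth. Mdx minus normal was −0.13 on the brightest and 0.0041 on the second. Without the arrays of female pattern, where fiona is array 4 alone, fiona minus mdx was −0.56 on the brightest. In the main fit only the third Tpm2 probe set was called, for fiona against mdx. Its normal arrays ran from 12.51 to 13.05, mdx arrays from 12.42 to 12.99, and fiona arrays measured 12.86, 12.93, 13.23, 13.13 and 13.10. The groups overlapped, with 3 of 5 fiona arrays above all mdx arrays. The difference was 0.34 (SE 0.12, adjusted p = 0.0344), beside 36.0% of all probe sets called higher. The call was lost in 14 of 22 alternatives, among them arrays centred on their medians (0.21, adjusted p = 0.226) and the removal of any one of mdx arrays 1, 3, 4 and 5 (differences of 0.29, 0.28, 0.34 and 0.33, with adjusted p of 0.0700, 0.0739, 0.0524 and 0.0591) or of fiona arrays 3, 4 and 5 (0.29, 0.32 and 0.33, with 0.0868, 0.0659 and 0.0703).

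The fourth Tpm2 probe set followed the array sets more than the groups. Its values ran from 11.51 to 12.29 on the arrays of set 1 and from 12.49 to 13.56 on those of set 2. Mdx array 1, at 12.49, was the lowest of set 2. The probe set was not called in any of the 3 comparisons (differences of −0.28, 0.52 and 0.24). With array set as a block fiona exceeded mdx muscle by 0.39 (adjusted p = 0.0482). Since the sets were drawn from these same values, the separation is partly built in and that adjusted p may be too small.

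Tpm3, which encodes the slow alpha chain and non-muscle forms, was the only one of the 3 member tropomyosin genes called for mdx against normal. Its 5 probe sets did not move together. On the brightest, normal arrays ran from 7.37 to 8.58 with a median of 7.75. Mdx arrays ran from 8.24 to 9.12 with a median of 8.94. Fiona arrays measured 7.85, 8.27, 7.96, 8.17 and 8.06. Of the mdx arrays, 5 lay above all normal arrays, and all fiona arrays lay inside the normal range. It rose 1.93-fold in mdx muscle (0.95, SE 0.20, adjusted p = 0.0113, exact permutation p = 0.00649) and fell 1.73-fold from mdx to fiona muscle (−0.79, SE 0.21, adjusted p = 0.0121, exact permutation p = 0.00649), with 16.1% of the mdx difference left. The rise was not called without the arrays of female pattern (1.03, adjusted p = 0.0796) or within array set 2 (0.76, adjusted p = 0.212). The fall was not called with quantile normalization (−0.62, adjusted p = 0.0576), within set 1 (−0.75, adjusted p = 0.0804), within set 2 (−0.86, adjusted p = 0.226) or without the arrays of female pattern (−0.64, adjusted p = 0.314).

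The other Tpm3 probe sets were not called. On the fourth, normal arrays ran from 5.87 to 7.47 and mdx arrays from 5.27 to 6.35, and fiona arrays measured 6.27, 6.16, 6.13, 6.14 and 5.71. There 4 of 6 mdx arrays lay below all normal arrays, opposite to the brightest probe set. The mdx difference was −0.92 (SE 0.25, adjusted p = 0.0601, exact permutation p = 0.0173) and was called under 7 of 24 alternatives, among them quantile normalization (−0.93, adjusted p = 0.0405), array set as a block (adjusted p = 0.0283) and the removal of normal array 2 (−1.06, adjusted p = 0.0304) or mdx array 1 (−1.05, adjusted p = 0.0322). On the second the mdx difference was −0.94 (adjusted p = 0.259), on the third 0.38 (adjusted p = 0.413) and on the fifth 0.38 (adjusted p = 0.314). On the third, mdx array 1 lay lowest at 5.12 and the other mdx arrays at 6.53 to 7.60, all above the normal arrays. Without mdx array 1 its fall from mdx to fiona muscle was called (−0.65, adjusted p = 0.0246).

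Within each array, the value of the brightest Tpm3 probe set minus that of the fourth can be compared between groups. It ran from 0.18 to 2.29 in normal muscle with a median of 1.32, from 2.48 to 3.65 in mdx muscle with a median of 3.18, and from 1.58 to 2.35 in fiona muscle with a median of 2.03. No mdx array overlapped either other group. Against the second Tpm3 probe set, which was also lower in mdx muscle on average, the groups did overlap: the difference ran from −0.90 to 1.73 in normal, from 1.17 to 3.78 in mdx and from 1.14 to 2.60 in fiona muscle. Both pairs of probe sets were chosen after the values were seen and were not tested. The platform annotation used here does not say which Tpm3 transcripts each probe set reads.

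**Figure D4:**
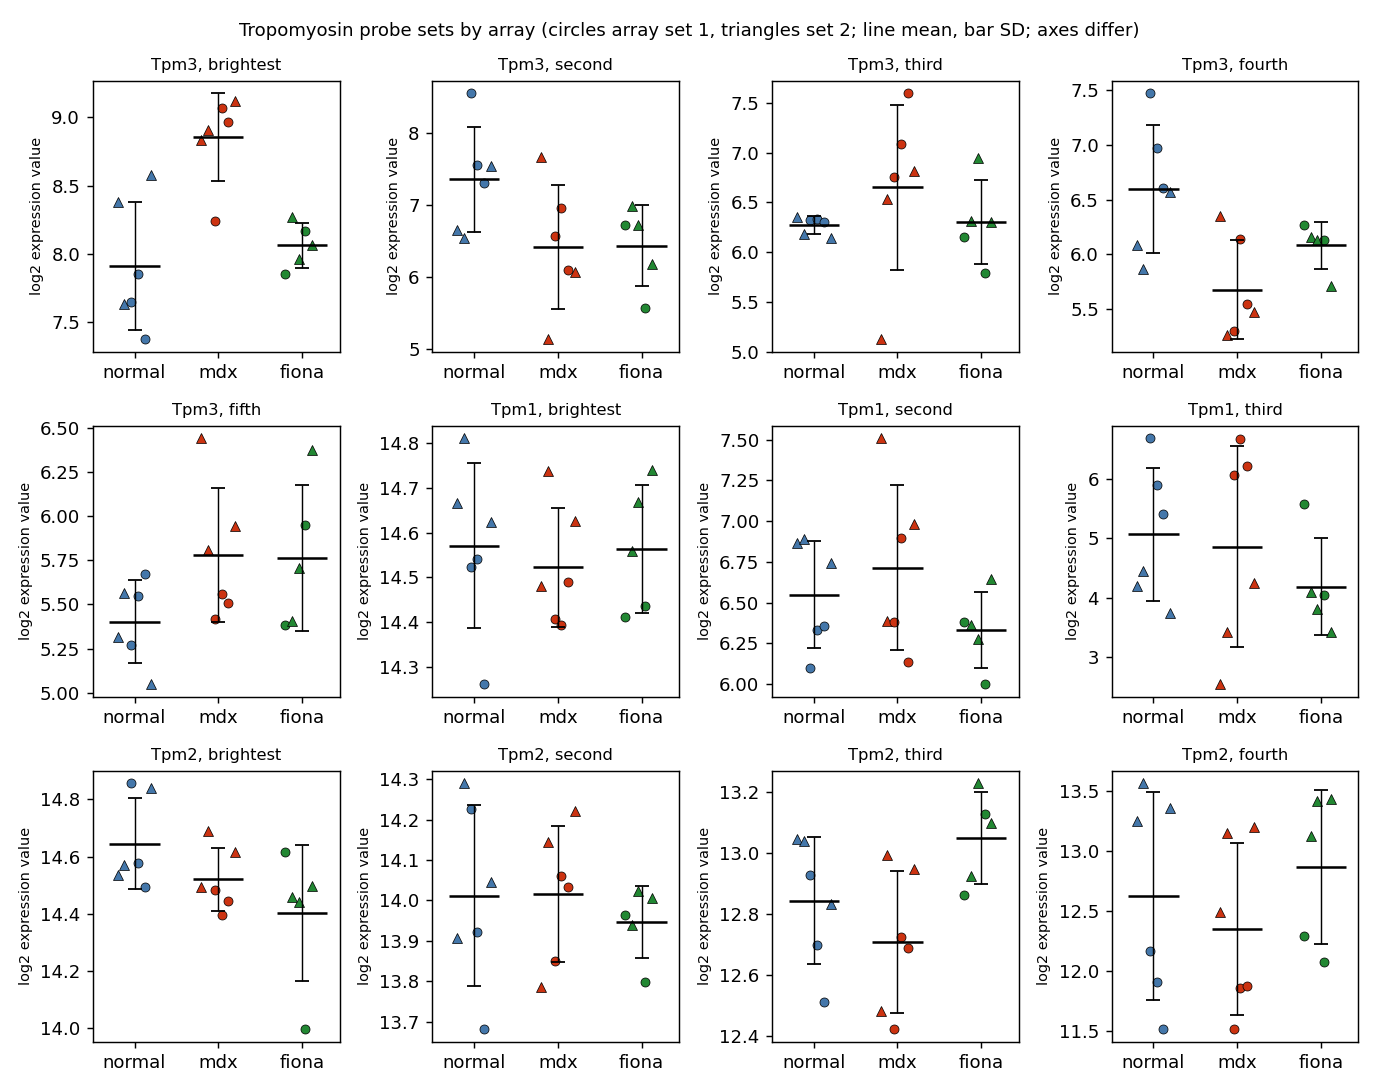
Log2 expression values (y axis, a separate scale in each panel) by array for the 12 tropomyosin probe sets in normal, mdx and fiona muscle. Circles are arrays of set 1 and triangles of set 2, lines are group means and bars are SD. On the brightest Tpm3 probe set 5 of 6 mdx points (8.24 to 9.12 in all) lie above all normal points, on the fourth 4 of 6 (5.27 to 6.35 in all) lie below them, and the fourth Tpm2 probe set separates circles from triangles.

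The balance between isoforms was followed as the log2 value of one gene minus its partner within the same array, relative to the mean of that difference in normal muscle, each gene by its brightest probe set. This quantity does not move with array scaling by a constant, and it was not tested. Tnnt2 minus Tnnt3 was 5.16 ± 1.50 in mdx muscle (n = 6) and ran from 2.36 to 6.19, with 6 of 6 arrays above all normal arrays. In fiona muscle it was 0.45, 0.39, 0.08, 0.71 and 0.59, with 4 of 5 arrays above all normal arrays, which reached 0.37. Tnnt2 minus Tnnt3 was the only one of the 5 balances in which any fiona array lay above the normal range. For Tnnt2 alone, 2 of 5 fiona arrays lay above all normal arrays. A shift at the low end alone does not cancel in this balance, and fiona floors lay 0.12 above normal floors on average. The part of that shift was not tested.

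Tnni1 minus Tnni2 was 4.20 ± 1.32 in mdx muscle and ran from 1.78 to 5.35, again with 6 of 6 arrays above the normal range. It was −0.28 ± 0.42 in fiona muscle. Tnnt1 minus Tnnt3 was 2.11 ± 1.55 in mdx muscle, with 5 of 6 arrays above the normal range, and −0.27 ± 0.55 in fiona muscle. Tnnc1 minus Tnnc2 was 1.44 ± 1.43 in mdx muscle, with 3 arrays above the normal range, and −1.43 ± 0.69 in fiona muscle, with 3 of 5 arrays below it. For these calcium sensors the fiona arrays lay below the normal mean, at −1.08, −0.42, −1.58, −2.14 and −1.93. Tpm3 minus Tpm1 was 1.00 ± 0.30 in mdx muscle and 0.16 ± 0.21 in fiona muscle, but with the mean over all probe sets of each gene the mdx value was −0.0031.

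**Figure D5:**
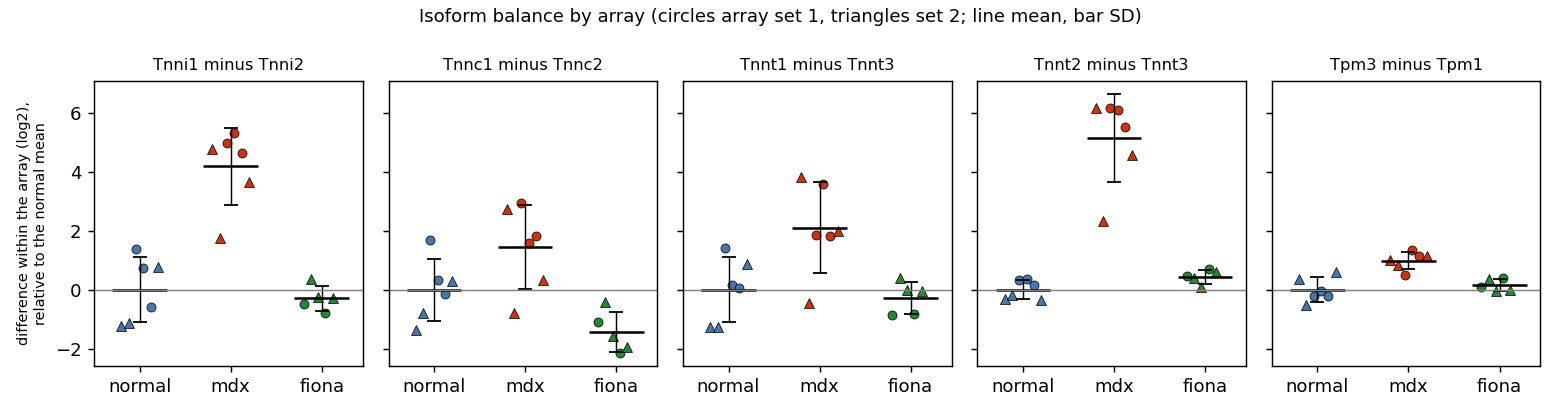
Isoform balance by array (y axis, log2 difference within the array relative to the normal mean) for 5 pairs of genes in normal, mdx and fiona muscle. Circles are arrays of set 1 and triangles of set 2, lines are group means and bars are SD. Mdx means run from 5.16 for Tnnt2 minus Tnnt3 down to 1.00 for Tpm3 minus Tpm1, mdx array 2 is the lowest mdx point of the 4 troponin panels, and fiona points of Tnnc1 minus Tnnc2 lie at −0.42 or below.

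The genes whose pattern was most like that of each strongly varying troponin were found by the mean absolute difference over the 17 arrays, after each gene was taken relative to its normal mean. For Tnnt2 they were the embryonic myosin heavy chain Myh3 (0.38), the protease inhibitor Serpinb1a (0.48) and the embryonic and atrial light chain Myl4 (0.49), where the median over all genes was 1.98. For Tnni1 they were Cd53 (0.59) and Fcgr3 (0.61), both leukocyte membrane proteins, and the calcium-binding protein gene S100a4 (0.67), against a median of 1.97. Tnnt1 was nearest to Col14a1 (0.41), a collagen gene, to Aldh18a1 (0.51), an enzyme of proline synthesis, and to Atp2a2 (0.51), the slow and cardiac calcium pump, against 1.24. For Tnnc1 they were Abi3bp (0.60), Antxr2 (0.65) and Cd302 (0.65), against 1.27. The points share arrays and groups, and the measure is a description.

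Other genes of the thin filament changed less than Tnnt2 and Tnni1. Of 24 listed, 17 were measured, and 2 were higher and 0 lower in mdx muscle, with 3.17% and 1.33% of all genes as background. They were Capza1, a subunit of the cap of the barbed end (0.87, adjusted p = 0.00459), and the non-muscle tropomyosin Tpm4 (0.79, adjusted p = 0.0211). Both fell in fiona muscle, by 0.88 and 0.64 on the log2 scale (adjusted p = 0.00687 and 0.0172). The cardiac actin gene Actc1, which developing muscle also uses, fell by 1.26 on the log2 scale from mdx to fiona muscle (adjusted p = 0.00850) after a mdx difference of 0.85 (adjusted p = 0.0557). The remaining calls, Tnni3 and Nebl higher in fiona muscle, were of 0.11 and 0.14 at values at or under the floor on all mdx and fiona arrays, in a comparison with 33.9% of genes called higher and 7.00% lower. The list had a median of −0.06 in mdx muscle, where all genes had −0.04.

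Other slow fibre genes went both ways. Of 10 slow fibre genes outside the members, 9 were measured. Of these 1 was higher and 1 lower in mdx muscle, beside 3.17% and 1.33% of all genes. Smpx rose by 0.39 (adjusted p = 0.0156), and the slow myosin light chain Myl3 fell by 2.73 on the log2 scale (adjusted p = 0.00291), while Tnni1 rose by 4.16. From mdx to fiona muscle 3 of 9 were higher and 2 lower, with 33.9% and 7.00% of all genes as background. Myl3 rose by 1.91 (adjusted p = 0.0120), and Atp2a2 fell by 1.91 on the log2 scale (adjusted p = 0.0120). Myl6b, also among the 3, differed by 0.12 at values at or under the floor on all mdx and fiona arrays. The slow myosin heavy chain Myh7 measured 4.29 ± 1.79 in normal muscle, 2.77 ± 0.67 in mdx muscle and 2.50 ± 0.11 in fiona muscle (SD) and was not called. It lay at or under the floor on 2 of 6 normal, 4 of 6 mdx and 5 of 5 fiona arrays, so these means are not measured levels throughout. The list's median was −0.43 in mdx muscle, beside −0.04 over all genes.

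Of 11 fast fibre genes, 10 were measured, and 0 were higher and 1 lower in mdx muscle, beside 3.17% and 1.33% of all genes. The lower one was the fast oxidative myosin Myh2 (−2.40, adjusted p = 0.0333). Beside the background of 33.9%, 2 of the 10 rose from mdx to fiona muscle. Myh2 rose by 2.56 from mdx to fiona muscle (adjusted p = 0.0120), and Myh1 by 0.22 (adjusted p = 0.0120). The fast myosin Myh4 had means of 14.70 (normal), 14.59 (mdx) and 14.57 (fiona) and was not called. Of the fast troponin probe sets, only the second of Tnni2 was called in the main fit, for fiona against mdx.

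Genes of developing and regenerating fibres moved in the same direction as Tnnt2 and Tnni1. All 16 listed genes were measured, and 10 were higher and 0 lower in mdx muscle, beside 3.17% and 1.33% of all genes. The median difference was 2.83, beside −0.04 over all genes. The largest were Myh3 (5.42, adjusted p = 4.19e-06) and Myl4 (5.21, adjusted p = 1.09e-05). From mdx to fiona muscle 0 were higher and 12 lower, beside 33.9% and 7.00% of all genes. The median was −2.39, beside 0.08 over all genes. The largest differences were those of Myl4 (−4.68, adjusted p = 6.62e-05) and Myh3 (−4.49, adjusted p = 5.74e-05). Sln, an inhibitor of the calcium pump, was also lower (adjusted p = 0.000115). For Sln 4 of 5 fiona arrays lay at or under the floor, and with the floor in their place the difference was −4.17. Between fiona and normal muscle 0 of the 16 were called in limma, and 1 had an unadjusted p under 0.05. Of 18 listed regulators of fibre type and of troponin genes, among them the MEF2 and TEAD factors, 16 were measured. In limma 0 of them were called in any comparison, and an unadjusted p was under 0.05 for 5 between mdx and normal muscle, 1 between fiona and mdx and 3 between fiona and normal. With quantile normalization 1 was called for mdx against normal.

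Markers of other cell types moved with these changes. Of 10 macrophage markers, 9 were higher in mdx muscle (background 3.17%) and all 10 fell from mdx to fiona muscle (background 7.00%), and their summed level, as log2 of the sum of linear values, ran from 9.22 to 10.6 on normal arrays, 12.7 to 14.004 on mdx arrays and 9.34 to 10.9 on fiona arrays. The largest changes were those of Mpeg1 (5.36) and Tyrobp (5.31). Of 7 fibroblast markers, 3 were higher in mdx muscle and 6 fell from mdx to fiona muscle, with summed levels of 13.0 to 14.01, 14.03 to 15.0 and 11.7 to 13.7. The part of these cells in the troponin differences was not tested. In whole muscle, fewer cells of a type and less RNA per cell cannot be told apart.

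Since Tnnt2, Tnnc1 and Tpm1 are also heart genes, cardiac and vascular markers were read as well. Of 8 cardiac markers, 4 (Nppa, Nppb, Myl7 and the cardiac troponin I gene Tnni3) were at or under the floor on all 17 arrays. The summed level of the 8 was 5.89 to 6.35 on normal arrays, 5.95 to 6.08 on mdx arrays and 6.21 to 6.43 on fiona arrays. For mdx against normal 0 were called in limma and 2 had an unadjusted p under 0.05, and for fiona against mdx all 8 were called higher. In that comparison 33.9% of all genes were called higher and the floor lay 0.20 higher, and the 4 genes at the floor differed by 0.07 to 0.11. Myh6 (0.56) and Pln (0.42) had larger differences. Among 11 smooth muscle and pericyte markers, 0 were higher and 1 lower in mdx muscle (Rgs5, −0.56), beside 3.17% and 1.33% of all genes. Their summed levels were 12.6 to 12.9 on normal arrays, 12.3 to 12.7 on mdx arrays and 12.5 to 13.0 on fiona arrays. Of 5 endothelial markers 0 were called in limma, with 1 at an unadjusted p under 0.05 for mdx against normal, and summed levels ran from 8.36 to 10.1 over all arrays. The 6 markers of the labelled tissue, fast skeletal muscle, were all measured, and 0 were called or had an unadjusted p under 0.05 in limma, with summed levels of 16.9 to 17.4 over all 17 arrays.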

How the data were processed

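Gene expression was measured on 17 single-colour Affymetrix arrays, and the deposited table holds log2 expression values of 22690 probe sets made by the authors. The submitters' processing notes name RMA and GCRMA without versions. Whether one or the other gave the deposited values is not stated in any source used here. After 64 control probe sets were set aside, 22626 were fitted in R 4.3.3 by the lmFit and eBayes functions of limma 3.58.1 (1 fit of 3 group means with no covariate, 14 residual degrees of freedom), without a filter on level. Genes in lists were represented by their brightest probe set with exactly 1 symbol (20380 probe sets, 12393 genes). Exact two-sided permutation tests over arrays were computed for 66 member differences as unadjusted second tests. Same-number normal and mdx arrays deviated together in all 6 pairs (residual correlations of 0.107 to 0.603), and each pair lay in 1 array set. The labels give no basis for such pairing, and fiona arrays did not share it (−0.512 to 0.485). The fit was tested on simulated data for mdx against normal alone, with noise drawn independently for each probe set and array. The simulation held no array sets, sex pattern or brightness shift, so it cannot show how these affect the calls. Precision is limited by how many arrays each group has.

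The members and lists were chosen with earlier results of these data known. The rule for named genes accounted for every member probe set and described those called in full. From the lists it took up to 2 called genes per list and comparison by size, and genes at the floor that define a cell type. It also took the 3 genes most like Tnnt2, Tnni1, Tnnt1 and Tnnc1. Actc1, Tnni3, Nebl, Myh7, Myh4 and the neighbours fall outside it or were chosen after their values were seen. Alternatives changed the scaling (medians, quantiles), the filter on dim probe sets, the probe sets tested, the variance model, the groups fitted, the replicate number as a block, the array set, the sex pattern and single arrays. Plots were made in matplotlib 3.10.9 under Python 3.11.15.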

Additional observations from a re-analysis of the deposited data

Results flagged for a closer look

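In 5 of the 66 sets of arrays examined (22 probe sets in 3 groups), 1 array stood apart from the rest of its group by the 95% criterion of Dixon's test. Chance alone gives about 1 in 20. On the second Tnni2 probe set, mdx array 1 measured 13.2 and the other mdx arrays 13.4 to 13.5. On the third Tnni2 probe set, fiona array 4 measured 6.71 and the other fiona arrays 7.36 to 7.51. On the brightest Tpm2 probe set, fiona array 4 measured 13.995 and the others 14.4 to 14.6. On the brightest Tpm3 probe set, mdx array 3 measured 8.24, inside the normal range, and the other mdx arrays 8.83 to 9.12. On the fourth Tpm3 probe set, fiona array 5 measured 5.71 and the others 6.13 to 6.27. None of the Tnnt2, Tnni1, Tnnt1 or Tnnc1 groups met the criterion, although mdx array 2 was the lowest mdx array on each.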

How the results depend on the processing

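Of 1526 differences of members recomputed under alternatives, 1471 were called in the same direction in both fits or uncalled in both. Of the others, 35 lost the call, 19 gained it and 1 was reversed (Tnnt3 for fiona against mdx, −0.24 without the arrays of female pattern). Only 4, 8 and 0 of the 22 members were called in the 3 main comparisons. The 1471 are therefore mostly differences uncalled in both fits, which were counted so even where the sign differed. Members called for mdx against normal numbered 2 within array set 2. For fiona against mdx they numbered 5 with quantile normalization and 0 within set 2. With 1 probe set per gene, where only 10 member probe sets are tested, they numbered 5, and no tested member lost its call. Over all probe sets, mdx against normal gave 578 with 1 probe set per gene, 1920 with array set as a block, 6032 within set 1, 381 within set 2 and 545 without the arrays of female pattern. Fiona against mdx gave 2473 with centred arrays, 3363 with quantile normalization, 3841 with the filter on dim probe sets, 4818 with 1 probe set per gene, 122 within set 2 and 3169 without the arrays of female pattern. The share of these calls that was higher was 85.5%, but 49.6% with centred arrays and 72.2% with quantile normalization. Fiona against normal gave 0 with 1 probe set per gene, 2 with trended robust variances, 10 with array set as a block, 60 within set 1, 15 within set 2 and 1013 without the arrays of female pattern. With the replicate block, fiona against mdx gave 4529 and fiona against normal 2, and among members called without it Tnnt1 (−2.26, adjusted p = 0.0508) and the third Tpm2 probe set (0.36, adjusted p = 0.0674) lost the call for fiona against mdx. A block on the normal and mdx arrays alone, added after seeing the data, gave 1058 calls for mdx against normal and 4 among members, and changed no member's call. Fiona arrays did not pair by number: 3 of 10 of their same-number pairs had residual correlations over 0.1, and 1 of 17 arrays was most like its own number. Leaving out 1 array gave 665 to 1054, 7000 to 10363 and 1 to 2147 calls over all probe sets (2147 without fiona array 2). Among members it gave 4 to 5, 7 to 9 and 0 to 0. The 0 to 0 for fiona against normal does not cover the removal of all arrays of female pattern, which leaves fiona array 4 alone. In that fit fiona minus normal was −0.68 on the third Tnni2 probe set, −0.33 for Tnnt3 and −0.61 on the brightest Tpm2 probe set. Calls among members differed there from the main fit, but 1 fiona array gives no spread of its own to judge them. For fiona against mdx, the thin filament list had 3 calls with quantile normalization, the slow fibre list 3 with centred arrays, and the fast fibre list 1 with either. The regulators had 1 call for mdx against normal with quantile normalization. The balance of Tpm3 minus Tpm1 in mdx muscle was −0.0031 with means over probe sets.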
